A study of Homo sapiens with 16 samples.

Results

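Ribosome-protected footprints (RPFs), the mRNA fragments that translating ribosomes shield from nuclease, were compared between MDA-MB-231 cells with and without knockdown of HNRNPC. The transcripts described are those of the knockdown table whose RPF values averaged 10 or more over the 4 RPF libraries of this comparison, which kept 4283 of 8980 listed transcripts. The whole series lists 10823 transcripts in 16 libraries. MDA-MB-231 is an established triple receptor negative breast cancer line, labelled poorly metastatic. Both groups expressed dCas9-KRAB, a nuclease-dead Cas9 fused to a repressor domain, from a lentivirus, and a lentiviral guide RNA, which was a control guide in sgControl cells and a guide against HNRNPC in sgHNRNPC cells. Both were selected with puromycin and grown in medium with serum, and each group had 2 RPF libraries and 2 RNA libraries. The labels do not say whether replicates came from separate transductions, so the errors below measure the spread between these libraries, which may be technical. No guide sequence is printed here.

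HNRNPC is an abundant protein of the nucleus that binds RNA at runs of U and takes part in splicing and 3′-end choice. Footprints count ribosomes on an mRNA, so they follow both how much of the mRNA there is and how densely it is translated. Some families are classic subjects of translational or stress control. Ribosomal protein mRNAs begin with a pyrimidine tract that makes their translation responsive to growth signals. Amino acid shortage and related stresses raise ATF4, which activates genes for amino acid synthesis, uptake and tRNA charging. Genes of cholesterol synthesis are activated together by SREBP transcription factors.

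The RPF values were normalised and have no unit of reads, so their depth is unknown. Their totals were 158011 and 164684 in the sgControl libraries and 160855 and 167928 in the sgHNRNPC libraries, and the transcripts tested held 84.1 to 85.6% of them. Because every library is scaled to the others, a change in total translation cannot be seen, and in such bulk lysates fewer cells and fewer footprints per cell cannot be told apart. The median transcript tested had a mean RPF of only 21.1, and 669 had a mean of at least 50. Just inside the minimum, NABP2 had values of 7.43 and 9.60 in sgControl and 13 and 9.97 in sgHNRNPC, and just outside it CASP4 had 8.13, 11.2, 10.1 and 10.5. Correlation between the 2 libraries of a group was 0.916 for sgControl and 0.882 for sgHNRNPC (Pearson's r of log2 values across transcripts, which are not independent replicates), and between groups it ranged from 0.869 to 0.905. The second sgHNRNPC library stood somewhat apart, with 213 listed transcripts at 0 against 28 to 72 in the others. Of markers of mesenchymal and basal breast cancer lines, 10 of 13 were tested, and the highest was VIM, the intermediate filament vimentin, at 429.6 and 464.8 in sgControl and 437.2 and 541.8 in sgHNRNPC. No luminal or epithelial marker reached the minimum, and EPCAM and ERBB2 had means of 4.26 and 5.88. Of 10 blood and endothelial markers only CD68 was analysed, a lysosomal protein that is not limited to blood cells, at 33.8 and 34.8 in sgControl and 52.8 and 53.0 in sgHNRNPC.

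The targeted gene was lower at both levels. HNRNPC, at chr14:21211106-21269425 on the minus strand of GRCh38, had RNA values of 2162 and 2146 in sgControl and 1147 and 1183 in sgHNRNPC. Its RNA fell by 0.89 on the log2 scale (SE 0.05, n = 2 per group, limma adjusted p = 5.1e-28). Its footprints were 73.4 and 111 in sgControl and 54.4 and 67.0 in sgHNRNPC. The groups did not overlap, but the RPF difference of -0.57 (SE 0.19) did not pass the test (limma adjusted p = 0.467). Changes here are differences of log2(value + 1), which understate the change of low values.

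RPF differences were small against their error. Of the 4283 transcripts, 85.3% differed by less than 0.5 on the log2 scale and 98.7% by less than 1. The median standard error was 0.293, and 0.182 for transcripts with a mean of at least 50. After Benjamini-Hochberg adjustment over all 4283, 1 transcript (0.0233%) passed an adjusted p of 0.05 in limma, and it was ASNS. Leaving out 1 library changed this count to 0 without sgControl replicate 2, 41 without sgHNRNPC replicate 1 and 15 without sgHNRNPC replicate 2. Without adjustment, 167 (3.9%) were higher in sgHNRNPC and 162 (3.78%) lower at p under 0.05. With 2 libraries against 2, no exact permutation test can go below a two-sided p of 0.333. Families are therefore described by how many members had both sgHNRNPC libraries above both sgControl libraries, or below them. The median log2 change over all transcripts tested, to be set beside the list medians below, was 0.02 in RPF and -0.035 in RNA. Of all transcripts tested 893 (20.8%) were above and 732 (17.1%) below.

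By that measure, genes of the amino acid response, tRNA charging and ribosomal proteins were more often above than below, and genes of cholesterol synthesis more often below. The sgHNRNPC libraries gave the amino acid response 0.50 and 0.521% of all footprints, against 0.434 and 0.428% in sgControl. Aminoacyl-tRNA synthetases took 0.774 and 0.797% against 0.688 and 0.685%. Cholesterol synthesis took 0.481 and 0.454% against 0.553 and 0.547%. In all 3 the groups were apart by more than the 2 libraries of either group.

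**Figure D1:**
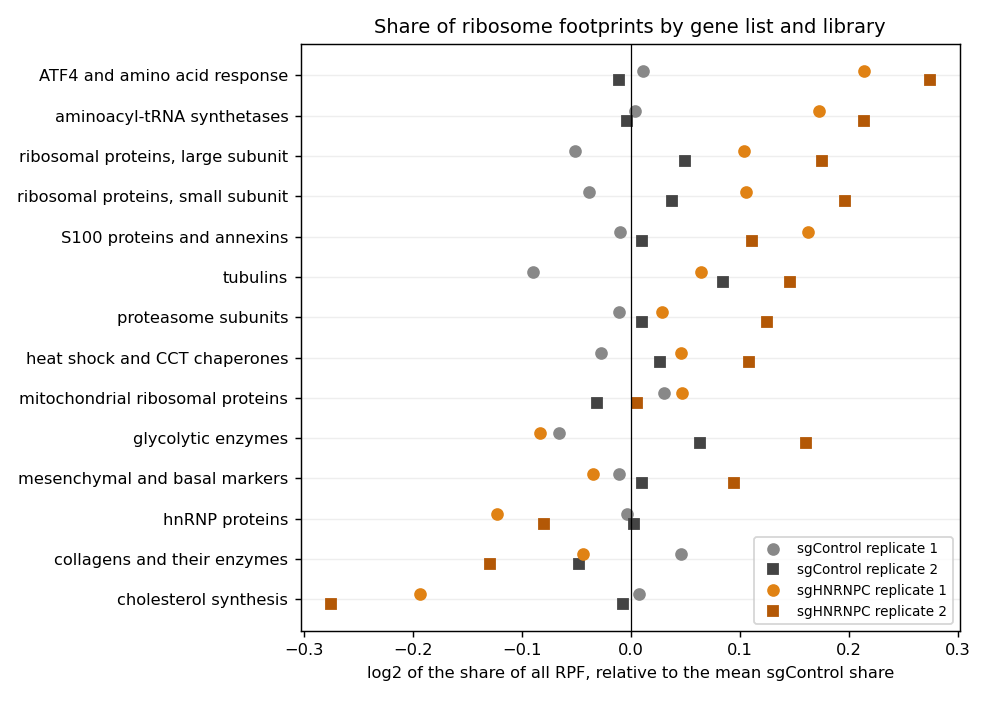
Share of all RPF held by 14 gene lists in each of the 4 libraries, as log2 of the share relative to the mean of the 2 sgControl shares; each point is 1 library. The sgHNRNPC points of the amino acid response and the aminoacyl-tRNA synthetases lie to the right of both sgControl points, those of cholesterol synthesis to the left, and those of glycolytic enzymes and mesenchymal markers spread across them.

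The amino acid response had the highest median of the lists with over 1 member tested. Of 38 genes listed for ATF4 and its targets, 19 were tested. Among these 11 were above and 2 below, the median RPF change was 0.26 and the median RNA change 0.17. The RPF median was 0.12 without sgControl replicate 1 and 0.17 without sgHNRNPC replicate 2. ASNS, asparagine synthetase, at chr7:97852118-97872542, had footprints of 25.3 and 16.7 in sgControl and 53.2 and 50.4 in sgHNRNPC. The group means were 21.0 ± 6.10 and 51.8 ± 1.99 (SD, n = 2). On the log2 scale it rose by 1.29 (SE 0.24, limma adjusted p = 0.0305). ASNS RNA rose too, by 0.78 (limma adjusted p = 2.2e-10). The RPF call rested on sgControl replicate 2: without it the change was 1.00 and the adjusted p 0.999. It also depended on the test, with an adjusted p of 0.653 when the variance was not allowed to follow the mean.

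Other genes of the response had higher values in both sgHNRNPC libraries without passing the RPF test. PSAT1, the aminotransferase of serine synthesis, was nearly equal in the sgControl libraries at 34.48 and 34.49, and was 47.4 and 66.7 in sgHNRNPC. PSAT1 RNA rose by 0.63 (limma adjusted p = 4.6e-12). PYCR1, the last enzyme of proline synthesis, was at 20.1 and 15.5 against 29.6 and 33.9, with an RNA change of only 0.04. The transporters SLC1A5, SLC3A2 and SLC7A5, which carry neutral amino acids or support their carriers, had RPF changes of 0.37, 0.26 and 0.26 and RNA changes of 0.36, 0.35 and 0.49, and all 3 had both libraries above. ATF4 itself was at 12.7 and 14.9 against 19.0 and 32.4. EIF4EBP1, which binds the cap-binding factor eIF4E, was at 8.94 and 11.9 against 17.9 and 26.0. The transporters, ATF4 and EIF4EBP1 were chosen after their values were seen. The 2 members below were SLC38A2, another amino acid transporter, at 67.8 and 73.5 against 52.3 and 59.5, and SLC7A11, the cystine transporter, at 22.4 and 25.1 against 11.3 and 12.5. SLC7A11 was also chosen after its values were seen, and its RNA fell by 0.37.

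All 23 cytosolic aminoacyl-tRNA synthetase and scaffold genes listed were tested. These enzymes load tRNAs with their amino acids. Of these, 13 were above and 1 below, with a median RPF change of 0.21 against a median RNA change of 0.07. AARS1, the enzyme for alanine, had footprints of 51.6 and 50.3 in sgControl and 67.9 and 92.1 in sgHNRNPC, with an RPF change of 0.62 (SE 0.19) and an RNA change of 0.44 (limma adjusted p = 4e-08). NARS1, the enzyme for asparagine, was at 34.1 and 30.2 against 48.1 and 48.5, a difference of 0.57 (SE 0.21), with an RNA change of 0.00. TARS1, WARS1 and GARS1, for threonine, tryptophan and glycine and chosen after their values were seen, had RPF changes of 0.52, 0.53 and 0.44. The single member below was LARS1, the enzyme for leucine, at 75.9 and 90.6 in sgControl and 39.9 and 48.9 in sgHNRNPC. Its change of -0.89 (SE 0.19) had the second smallest p of all transcripts and did not pass the test (limma adjusted p = 0.11), and LARS1 RNA differed by -0.12. LARS1 thus stood opposite to most of its family, in which 20 of 23 members had a change above 0. VARS1 and CARS1 were the other members with a change below 0, at -0.20 and -0.02.

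ATF4 dimers bind the composite C/EBP-ATF element, whose core letters were searched as TGATGNAA on both strands of the RefSeq promoter windows (GRCh38.p14, 250 bases before to 50 after a gene's start). The letters were in a window of 7 of the 19 synthetase genes matched by symbol (36.8%) and 5 of 14 genes of the amino acid response (35.7%), against 4.46% of 27305 genes in the table and 2.73% of 3512 genes tested and matched. Both lists hold kinds of genes that ATF4 is known to activate. A higher share of the letters therefore follows from how the lists were chosen and is no result of these data. The matches of 7 members that were above follow, with the core in capitals and the strand of the printed letters, since these are members with higher footprints in both sgHNRNPC libraries. Those of NARS1 and TARS1 lie just after the RefSeq start, the others printed before it. IARS1 was chosen after its values were seen. Matches of SLC3A2, which was also above, and of CARS1, MARS1, MTHFD1L and SLC7A1 are not printed.
ASNS, chr7:97872461-97872484, minus strand: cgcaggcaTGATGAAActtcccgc
SLC1A5, chr19:46784896-46784919, minus strand: gaagtggcTGATGCAAgctgtcca
AARS1, chr16:70289678-70289701, plus strand: aacttggcTGATGCAActgcgaga
NARS1, chr18:57621807-57621830, minus strand: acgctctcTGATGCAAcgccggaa
TARS1, chr5:33440959-33440982, minus strand: ggaccagcTGATGCAAtcgaaagg
GARS1, chr7:30594837-30594860, minus strand: tcggagcaTGATGAAAtcgccgcg
IARS1, chr9:92293695-92293718, plus strand: cacggaggTGATGCAAcgcgctga
The 7 synthetase genes with the letters had a median RPF change of 0.44, and the 12 others matched 0.20. Over all tested genes the letters did not go with a higher value: the median was 0.00 with them and 0.02 without. A match of letters is a description and not a binding site.

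Ribosomal proteins of both subunits were more often above than below. Of large subunit proteins, 47 were tested, 18 were above and 2 below, and the median RPF change was 0.19 against 0.09 in RNA. Of small subunit proteins, 29 were tested, 14 were above and none was below, with medians of 0.18 and 0.07. Large subunit proteins took 2.10 and 2.26% of footprints in sgControl and 2.34 and 2.46% in sgHNRNPC, and small subunit proteins 1.24 and 1.30% against 1.37 and 1.46%. Without sgHNRNPC replicate 2 the RPF medians were 0.12 and 0.10, and without sgControl replicate 1 the large subunit was at 0.09. None of these genes passed the RPF test. RPLP1, a protein of the ribosomal stalk, was at 24.8 and 37.1 in sgControl and 49.0 and 48.3 in sgHNRNPC, with a change of 0.66 (SE 0.22, limma adjusted p = 0.467). RPL13 was at 70.0 and 97.4 against 101 and 139, with a change of 0.52 and an RNA change of -0.06. RPS12 was at 27.3 and 36.4 against 41.5 and 44.6, and RPS13 at 65.6 and 69.3 against 98.0 and 82.6, with changes of 0.44 and 0.41. The 2 below were RPL41, at 25.9 and 23.5 against 23.1 and 19.1, and RPLP0, the stalk base, at 107 and 121 against 99.4 and 99.2. RPLP0 RNA rose by 0.16 (limma adjusted p = 0.00085), so its footprints and RNA differed in sign. Ribosomal protein genes have many near-identical processed copies, and how the reads were divided among them is uncertain.

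Most of these genes that were matched show a pyrimidine tract at the annotated start. A C at the RefSeq start followed by at least 4 pyrimidines was present for 26 of 38 large subunit genes (68.4%) and 17 of 23 small subunit genes (73.9%) matched, against 5.14% of all genes in the table. The first 15 bases are given for 6 members that were above, with the pyrimidine tract in capitals; RPL12 and RPL11 were chosen after their values were seen.
RPLP1, chr15:69452818-69452832, plus strand: CCCCTTTCCTCagct
RPL13, chr16:89560682-89560696, plus strand: CTTTCCgctcggctg
RPS12, chr6:132814569-132814583, plus strand: CTCTTTCCCTgccgc
RPS13, chr11:17077653-17077667, minus strand: CCTTTCgttgcctga
RPL12, chr9:127451392-127451406, minus strand: CCTCTCggctttcgg
RPL11, chr1:23691806-23691820, plus strand: CTCTTCCTgctctcc
RPL41 and RPLP0, the 2 below, also had such a start. Among tested genes of every kind, 313 of 3512 matched (8.91%) had it, and their median RPF change was 0.08 against 0.01 for the others. These include the ribosomal protein genes, among which the medians with and without such a start were 0.23 and 0.14 for the large subunit and 0.18 and 0.21 for the small subunit, so the order was opposite.

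Coding length moved with these differences. Ribosomal protein mRNAs are short, with median coding lengths of 480 bases for the large and 459 for the small subunit. Over all 428 tested transcripts with a coding length of up to 500 bases the median RPF change was 0.12, with 28.3% above and 7.94% below, and over the 365 with more than 4000 bases it was -0.10, with 15.3% above and 27.7% below. Short transcripts took 8.83 and 9.16% of footprints in sgControl and 9.35 and 9.73% in sgHNRNPC. A gradient of like size separated libraries of the same group: sgControl replicate 2 exceeded replicate 1 by a median of 0.14 in the shortest class and differed by -0.02 in the longest, and sgHNRNPC replicate 2 against replicate 1 gave 0.13 and -0.01. Between sgHNRNPC replicate 1 and sgControl replicate 2 the medians were -0.01 and -0.09. Spearman's rho of RPF change with coding length was -0.165 over 4190 transcripts, which share their libraries, and that of RNA change was -0.132. When a smooth trend with coding length was taken out of every library, a step chosen after seeing the data, the median RPF change was 0.09 for large and 0.10 for small subunit proteins. The same step left aminoacyl-tRNA synthetases at 0.21, the amino acid response at 0.23 and cholesterol synthesis at -0.25. With it, no transcript passed the test, and ASNS had a limma adjusted p of 0.0524; without adjustment 325 transcripts had a p under 0.05. The part of length in the ribosomal protein difference was not tested beyond this.

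**Figure D2:**
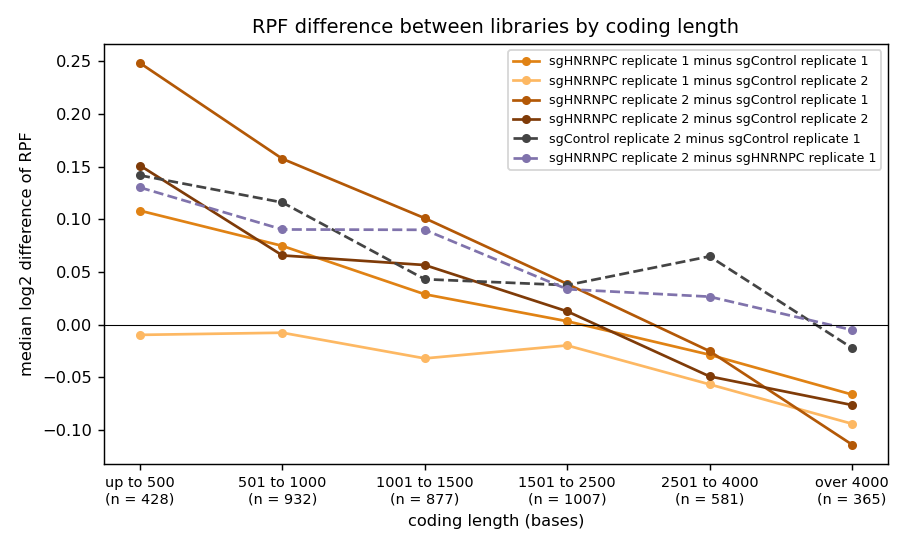
Median log2 difference of RPF between pairs of libraries (y axis) in 6 classes of coding length in bases (x axis, with the number of transcripts); solid lines compare an sgHNRNPC with an sgControl library and dashed lines the 2 libraries of a group. Both dashed lines start at 0.13 to 0.14 in the shortest class and end below 0 in the longest, and the line of sgHNRNPC replicate 1 minus sgControl replicate 2 is nearly level up to 2500 bases.

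Cholesterol synthesis was lower in footprints and in RNA. Of 27 genes listed for the pathway and its SREBP regulators, 22 were tested, of which 11 were below and 1 above, with a median RPF change of -0.23. RNA fell for 17 of the 22 (limma adjusted p under 0.05) and rose for none, against 11.3% lower and 4.72% higher over all transcripts tested, and the median RNA change was -0.33. HMGCS1, which makes the HMG-CoA that feeds the pathway, had footprints of 30 and 31.3 in sgControl and 21.1 and 7.37 in sgHNRNPC. Its RPF change was -1.22 (SE 0.34, limma adjusted p = 0.377) and its RNA fell by 0.88 (limma adjusted p = 6.5e-15). The 2 sgHNRNPC libraries lay far apart for this gene, and without replicate 2 the change was -0.52. IDI1, the isopentenyl diphosphate isomerase, was at 39.5 and 46.7 against 25.2 and 17.4, with an RPF change of -1.0 (SE 0.25, limma adjusted p = 0.221), while its RNA fell by 0.25.

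Not every gene of the pathway followed. DHCR7, LSS and SREBF2 had RPF changes of 0.04, 0.04 and 0.12 while the RNA of all 3 fell. These 3 were chosen after their values were seen. The 1 gene above was SREBF1, whose protein drives fatty acid more than cholesterol genes, at 46.1 and 30.5 against 52.9 and 55.3. Letters of the sterol element, TCACNCCA, were in the windows of 3 of 16 pathway genes matched (18.8%) and 4.81% of all genes in the table, and those 3 had a median RPF change of -0.10 against -0.23 for the other 13.

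**Figure D3:**
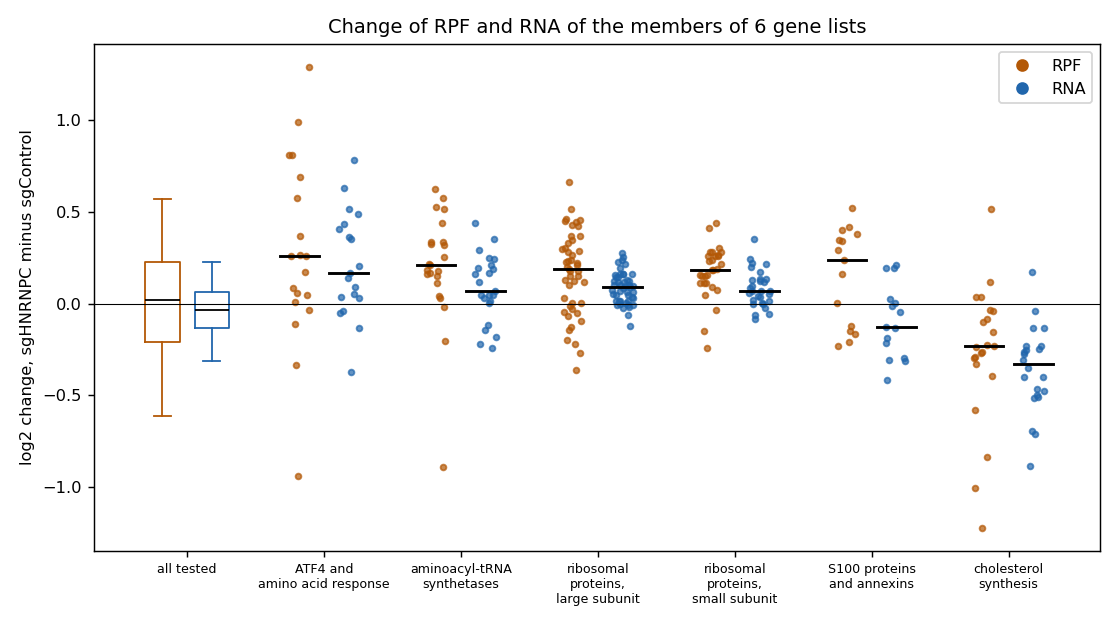
Log2 change of sgHNRNPC minus sgControl in RPF and in RNA for each member of 6 gene lists, with the median as a black line, beside all 4283 transcripts tested (box, quartiles; whiskers, 5th and 95th percentiles). Amino acid and synthetase genes lie mostly above 0 at both levels, cholesterol genes below 0 at both, and S100 proteins and annexins above 0 in RPF (median 0.24) and below in RNA (median -0.13).

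S100 proteins and annexins, calcium-binding proteins abundant in these cells, differed between the 2 readouts. Of 15 tested, 6 were above and 4 below, so the family was divided, and its summed share was 0.675 and 0.684% in sgControl and 0.761 and 0.734% in sgHNRNPC. The RNA of 8 members fell and that of 1 rose (limma adjusted p under 0.05), against 11.3% lower and 4.72% higher over all transcripts tested. S100A6 had footprints of 154 and 135 in sgControl and 200 and 186 in sgHNRNPC, a change of 0.42 (SE 0.15), while its RNA fell by 0.19 (limma adjusted p = 0.000102). ANXA2, a membrane-binding annexin, was at 188 and 214 against 237 and 287, with an RNA change of -0.04. The lowest differences were those of ANXA6, at 116 and 120 against 102 and 98.6, and ANXA7, at 56.5 and 60.6 against 54.3 and 46.9. The median of the family was 0.24, but 0.06 without sgHNRNPC replicate 1.

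Lists of protein folding, protein turnover and tubulins had more members above than below, as had all transcripts tested. Of 28 heat shock and CCT chaperones tested, 11 were above and 2 below, with a median of 0.12, or 0.03 without sgControl replicate 1. HSPE1, a co-chaperonin that works in mitochondria, was at 17.9 and 28.0 in sgControl and 34.4 and 37.8 in sgHNRNPC, and DNAJA1 at 64.2 and 70.0 against 76.4 and 109. Proteasome subunits had 12 above and 5 below of 42, with a median of 0.13 in RPF and -0.04 in RNA. The RNA median was close to the -0.035 of all transcripts tested. That RPF median was 0.01 without sgControl replicate 1 and 0.04 without sgHNRNPC replicate 2. PSMA4, of the proteolytic core, was at 21.7 and 29.8 against 40.2 and 41.2 with an RNA change of -0.01. Tubulins had 6 above and none below of 11, led by TUBB2A at 21.4 and 26.3 against 35.5 and 30.6, but their summed shares overlapped between the groups. None of these members passed the test.

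Collagens and the enzymes that modify them held both directions. Of 21 tested, 7 were below and 3 above, and the median was -0.14. It was -0.04 without sgHNRNPC replicate 2, and 0.10 when only the 3 members with a mean RPF of at least 50 were kept. COL18A1, the precursor of endostatin, was at 36.8 and 29.4 in sgControl and 12.9 and 18.2 in sgHNRNPC, and its RNA fell by 0.82 (limma adjusted p = 9.3e-06). The catalytic subunits of collagen prolyl 4-hydroxylase had opposite signs. P4HA1 was at 34.0 and 42.9 against 16.8 and 19.9, with an RPF change of -1.02 (SE 0.26, limma adjusted p = 0.223) and an RNA change of 0.18. P4HA2 was at 19.6 and 20.3 against 32.7 and 29.6, with an RPF change of 0.62 (SE 0.26, limma adjusted p = 0.545) and an RNA change of 0.03. For both, the groups did not overlap while RNA did not pass the test.

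The RNA-binding families closest to the target had both directions. Of 26 hnRNP genes tested, 7 were below and 2 above, with a median of -0.05 in RPF and -0.08 in RNA, and their share was 1.19 and 1.2% in sgControl and 1.10 and 1.13% in sgHNRNPC. HNRNPC is itself a member. The median was 0.00 without sgHNRNPC replicate 1 and -0.10 without sgHNRNPC replicate 2. PTBP1, a repressor of exon inclusion, was at 131.7 and 132.5 in sgControl and 103.8 and 112.9 in sgHNRNPC, and HNRNPA3 at 49.4 and 36.4 against 55.9 and 51.5. SR splicing factors had 4 above and 1 below of 13. Cleavage and polyadenylation factors had 5 above and 1 below of 16, and here the subunits of cleavage factor I differed: CPSF6 had a change of -0.56 and NUDT21 one of 0.69, with RNA changes of -0.09 and 0.07. Poly(A)-binding proteins had 1 above and none below of 9, U-rich RNA binders other than HNRNPC 1 above and 3 below of 12, and Argonaute and microRNA pathway genes 1 above and none below of 5.

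The other lists are given by their counts, to be read against 20.8% above and 17.1% below over all transcripts. Translation initiation factors had 9 above and 3 below of 34, and EIF3C, a core subunit of eIF3, was among those below at 69.5 and 76.6 against 43.3 and 48.8, with an RNA fall of 0.69 (limma adjusted p = 6.5e-15). EIF3C has a near-identical neighbour, EIF3CL, which was at 53.2 and 65.7 against 50.2 and 48.2, and how reads were divided between the 2 is uncertain. Elongation and termination factors had 2 above and 5 below of 13. Ribosome biogenesis had 10 above and 5 below of 34, led by UTP4, which acts in small subunit assembly, at 27.2 and 24.1 against 48.2 and 50.1. Mitochondrial ribosomal proteins had 17 above and 10 below of 62, the nuclear-encoded respiratory chain 17 and 5 of 71, and the secretory pathway 7 and 5 of 49. Respiratory chain transcripts have a median coding length of 435 bases, and their median change of 0.08 was below the 0.12 of all transcripts of that length. Glycolytic enzymes had 2 above and 2 below of 16, endoplasmic reticulum chaperones 2 and 3 of 18, integrins 3 and 1 of 8, and iron handling none and 1 of 7. Actin and LIM-domain cytoskeleton genes had 11 above and 3 below of 40. NRF2 antioxidant genes had 5 and 5 of 20, interferon-stimulated genes 8 and 3 of 23 and inflammatory genes 1 and 1 of 6. DNA replication had 5 above and 7 below of 43, and mitosis 10 and 5 of 46. Among 9 lung metastasis genes tested, 2 were above and 1 below; the latter was FSCN1, the actin-bundling protein fascin, at 33.0 and 31.2 against 12.1 and 28.0, with an RNA fall of 0.80.

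Single transcripts with the smallest p stood in several of these families. Among those with a mean of at least 30 and no overlap, the 10 smallest unadjusted p belonged to ASNS, LARS1, PDLIM5, ENPP1, UTP4, IDI1, EIF3C, MCM4, AARS1 and PSAT1. PDLIM5, a PDZ and LIM protein of the actin cytoskeleton at chr4:94455245-94665501, had footprints of 51.0 and 42.7 in sgControl and 29.2 and 16.4 in sgHNRNPC. The group means were 46.8 ± 5.84 and 22.8 ± 9.05 (SD, n = 2), with a change of -1.06 (SE 0.25, limma adjusted p = 0.211), and PDLIM5 RNA fell by 0.42 (limma adjusted p = 4.2e-06). ENPP1, an ectoenzyme that hydrolyses extracellular nucleotides, was at 52.7 and 64.5 against 28.5 and 34.4. Its change of -0.88 (SE 0.21) came with an RNA fall of 0.76 (limma adjusted p = 5.7e-22). MCM4, of the replicative helicase, was at 74.8 and 82.0 against 57.3 and 43.8. UTP4 had a change of 0.92 (SE 0.22, limma adjusted p = 0.211) beside an RNA change of 0.19 that did not pass. Except for ASNS, none of the 10 passed the RPF test.

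**Figure D4:**
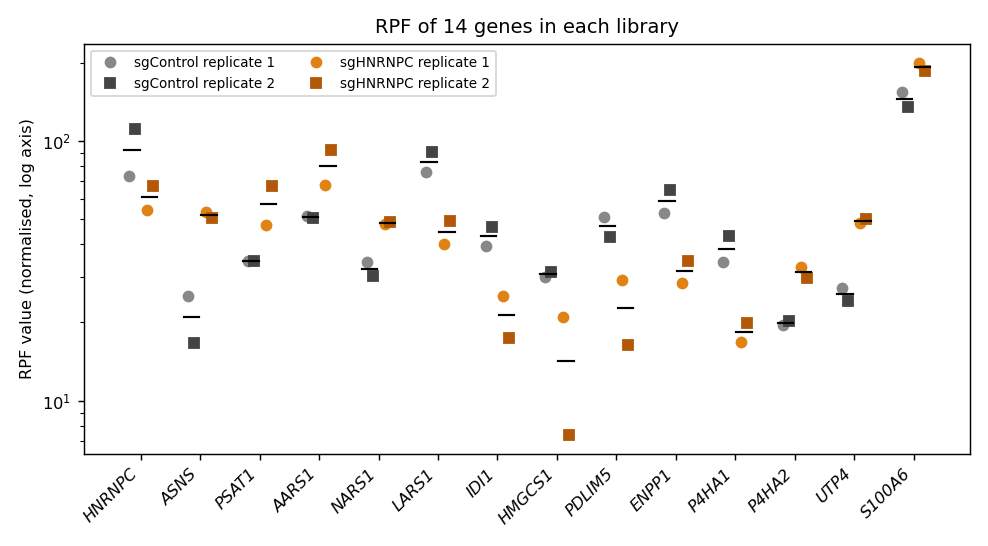
RPF values of 14 genes in each of the 4 libraries (log axis), with the mean of each group as a bar. In all 14 the sgHNRNPC points lie on one side of both sgControl points. No overlap was a condition for naming most of these genes, so this is no result. HMGCS1 has the widest gap between the 2 sgHNRNPC libraries (21.1 and 7.37).

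Footprints followed RNA in part. The 202 transcripts whose RNA rose had a median RPF change of 0.21 beside a median RNA change of 0.25, with 41.6% above and 8.42% below. The 482 whose RNA fell had medians of -0.13 and -0.27, with 9.54% above and 29.7% below. The 3599 others had 21.2% above and 15.9% below. Across transcripts Pearson's r between the RPF and RNA changes was 0.249, and 0.428 for the 669 with a mean RPF of at least 50; libraries of a kind are shared by all points. Translational efficiency is the RPF change minus the RNA change of the same transcript. In a model of all 8 libraries no transcript (0%) passed an adjusted p of 0.05 for it (limma, smallest adjusted p = 0.57), and 332 had an unadjusted p under 0.05. The standard errors of this model pool the spread of RPF and RNA libraries, so they can be smaller than the error of the RPF change alone and are then too small. For named genes the difference between the 2 changes was -1.20 (SE 0.22) for P4HA1, -0.78 (SE 0.19) for LARS1, 0.73 (SE 0.21) for UTP4, 0.61 (SE 0.13) for S100A6 and 0.57 (SE 0.18) for NARS1, against 0.51 (SE 0.28) for ASNS and -0.12 (SE 0.19) for ENPP1.

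**Figure D5:**
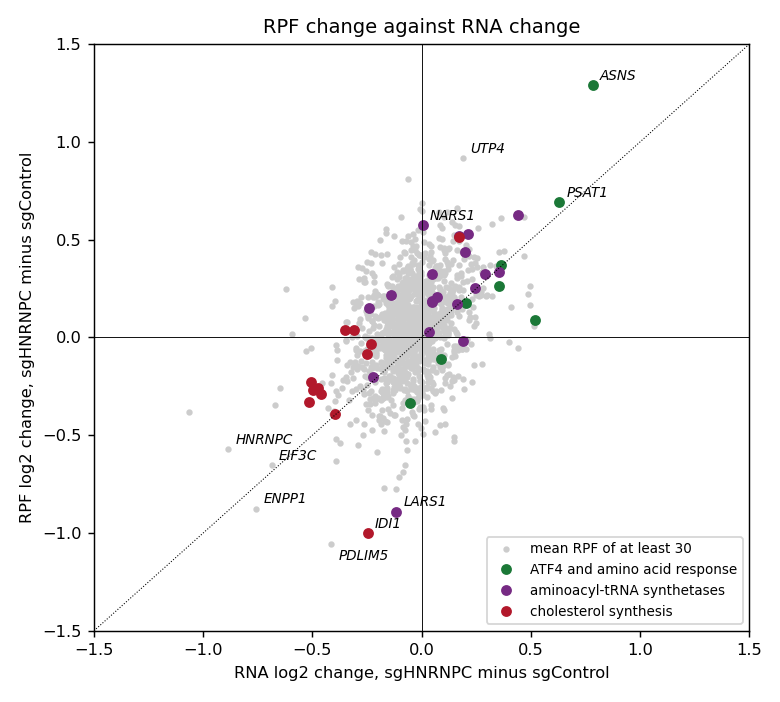
RPF change (y axis) against RNA change (x axis), both log2 of sgHNRNPC minus sgControl, for the 1384 tested transcripts with a mean RPF of at least 30; the dotted line marks equal changes and 3 gene lists are coloured. ASNS and PSAT1 lie at the upper right, ENPP1, EIF3C and HNRNPC at the lower left, and LARS1, UTP4 and NARS1 farther from 0 in RPF than in RNA.

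Runs of U in the 3′ UTR, the kind of sequence HNRNPC binds, were read from the GENCODE v44 transcript sequences. Transcripts were grouped by their longest run. The 412 with runs of up to 3 had a median RPF change of 0.10 and the 983 with runs of 10 or more one of -0.03, while the RNA medians were -0.01 and -0.04. In between, the medians were 0.05 for runs of 4 or 5, 0.01 for 6 or 7 and 0.00 for 8 or 9. Longer runs occur in longer UTRs: the median 3′ UTR was 134.5 bases in the first class and 2696 in the last, and median coding length went from 1045.5 to 1566 bases. Within coding lengths over 1000 and up to 2500 bases the first and last class had medians of 0.11 and -0.03. Within 3′ UTRs over 500 and up to 1500 bases they were 0.11 (n = 31) and -0.05 (n = 177), with 0.02, 0.01 and 0.02 between them. Spearman's rho with the longest run was -0.108 for RPF change and 0.000905 for RNA change over 4176 transcripts. With 3′ UTR length it was -0.111 for RPF change and 0.0081 for RNA change over 4190 transcripts, so the pattern was not particular to runs. Among the 10 single transcripts above, the longest run of those with lower footprints was 30 in ENPP1, 10 in IDI1 and LARS1, 7 in PDLIM5 and MCM4 and 3 in EIF3C. The runs of those with higher footprints are not given, and 983 of all 4176 transcripts had runs of 10 or more. A link of runs to lower footprints therefore cannot be read from these genes. As examples from those with lower footprints, chosen after their values were seen, the runs of PDLIM5, IDI1 and LARS1 follow in capitals. Binding of HNRNPC to these runs was not tested.
PDLIM5, chr4:94665107-94665129, plus strand: aaauuccaUUUUUUUcccuugug
IDI1, chr10:1039469-1039494, minus strand: ccuauaaaUUUUUUUUUUcuuaaacu
LARS1, chr5:146113657-146113682, minus strand: uuagcagcUUUUUUUUUUaaaugaag

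The other genes the study follows had RPF values within or near the spread of the libraries. PABPC4, a cytoplasmic poly(A)-binding protein, was at 39.6 and 55.1 in sgControl and 43.2 and 26.9 in sgHNRNPC, with a change of -0.44 (SE 0.23, limma adjusted p = 0.701). Its nuclear relative PABPN1 was at 11.4 and 17.7 against 16.1 and 15.7. TXNRD1, a thioredoxin reductase, was at 66.3 and 53.3 against 54.9 and 52.9, and its RNA fell by 0.30 (limma adjusted p = 3.7e-07). PGK1, a glycolytic kinase, was at 166 and 191 against 140 and 186, and ELAVL1, another U-rich RNA binder, at 32.1 and 44.7 against 30.9 and 40.8. AGO2, the slicing Argonaute, was under the minimum with 13.8, 6.91, 6.29 and 6.82. TIA1 is not analysed here.

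MDA-LM2, a lung-metastatic derivative of the line, was compared with its parental cells in a separately normalised table that shares no library with the knockdown. Over 4281 transcripts Pearson's r between the RPF changes of the 2 comparisons was -0.00766 and Spearman's rho -0.0158. PDLIM5 was lower in both, at -1.06 in the knockdown and -0.995 in MDA-LM2, as was ENPP1 at -0.88 and -0.79. The paper nominated PDLIM5 partly because its translation was repressed in both MDA-LM2 and knockdown cells. Its lower values in both comparisons therefore follow in part from that choice and are no independent agreement. ASNS was at 1.29 and 0.29, PSAT1 at 0.69 and 0.61, LARS1 at -0.89 and 0.27, and SREBF1 at 0.52 and -1.22, so the last 2 had opposite signs. These genes are a few picked from those named, and whether the 2 comparisons share changes in single genes was not tested.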

How the data were processed

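Values were used as the authors deposited them: RPF and RNA signal per transcript, 1 transcript per gene. Per the paper's methods and the labels, reads were trimmed (cutadapt 2.3), freed of rRNA and tRNA and aligned to mRNAs (Bowtie2 2.3.5), deduplicated by molecular identifier (footprints), and scaled with size factors (median of ratios), RPF and RNA apart. The paper's methods also describe an optional correction of RPF counts for stalled ribosomes, and whether these values carry it is not known here. RPF values fall on no step of whole reads, so no count test was run. Of 8980 listed transcripts, 8788 (97.9%) matched GENCODE v44. Symbols, coordinates, coding lengths and 3′ UTRs come from there, and the labels list hg38. RPF values were fitted as log2(value + 1) with limma 3.58.1 in R 4.3.3 (two-sided, variance trend, Benjamini-Hochberg over 4283 transcripts), and RNA likewise. Translational efficiency was the interaction over 8 libraries. The fit was tested on simulated data with independent errors. These data held no gradient of coding length between libraries, so the simulation does not test the fit for that. The members and gene lists were chosen with earlier results of these data known. Named genes were HNRNPC and genes the study follows, the RPF call, the 10 smallest p with a mean of at least 30 and no overlap, in each list the 2 highest and 2 lowest changes with a mean of at least 20 and no overlap, and leading markers. Alternatives varied the added value, filter, scaling, moderation, replicate block and libraries.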

Additional observations from a re-analysis of the deposited data

How the results depend on the processing

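One transcript passed the RPF test as reported, and the count was 0 without a filter, 0 without a variance trend, 0 with the trend of coding length removed (chosen after seeing the data), 2 with equal totals or robust moderation and 6 with quantile normalisation. Leaving out 1 library gave 0 to 41 calls, with 0 without sgControl replicate 2, 41 without sgHNRNPC replicate 1 and 15 without sgHNRNPC replicate 2, where the lone library is assumed to vary like the others. With a minimum mean of 50 the 1 call was LARS1. A replicate block gave 12 calls, but the deviations of equally numbered libraries correlated at 0.0281, so the numbers do not pair the samples. The count of TE calls stayed at 0 when RPF and RNA libraries of the same group and number were taken as 1 lysate. The deviations of these libraries correlated at -0.0083 in sgControl and 0.00028 in sgHNRNPC, so the numbers show no pairing here either. The edgeR test on recovered RNA reads was not run, since whole reads in the RNA values could not be verified by the check of units.

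The medians of the amino acid response and both ribosomal protein lists moved by less than the spread between libraries, with 0.12 to 0.36, 0.087 to 0.25 and 0.10 to 0.24 when 1 library was left out. Those of the aminoacyl-tRNA synthetases (0.15 to 0.24) and cholesterol synthesis (-0.22 to -0.16) moved by more, but kept their sign. With a minimum mean of 50 these 2 were 0.32 and -0.16, and the synthetases were at 0.18 with equal totals and 0.17 with quantile normalisation. Other lists, all but collagens with medians near 0, changed sign by more than the spread between libraries. With 1 library left out, elongation and termination factors ranged from -0.194 to -0.0266, iron handling from -0.0725 to 0.158, mitosis from -0.0207 to 0.0676, endoplasmic reticulum chaperones from -0.0191 to 0.0842 and lung metastasis genes from -0.125 to 0.223. With a minimum mean of 50, endoplasmic reticulum chaperones were at 0.078 and collagens, with only 3 members left, at 0.10 against -0.14 in the main fit. With the length trend removed, mitochondrial ribosomal proteins were at -0.0029 and the respiratory chain at -0.021, and quantile normalisation put mitosis at -0.00372. Of 114 genes under the naming rule, 109 kept their direction in every alternative. The exceptions, with 1 library left out, ranged from -0.15 to 0.444 (PABPN1), -0.293 to 0.016 (TXNRD1), -0.34 to 0.068 (PGK1), -0.325 to 0.14 (ELAVL1) and -0.032 to 0.278 (VIM), and VIM was at -0.036 with quantile normalisation. The causes were not tested. The precision was lower for low values: the median standard error was 0.372 for transcripts with a mean RPF under 20 and 0.182 for those with at least 50.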
